A study of Drosophila melanogaster with 4 samples.

Results

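The 8 genes described here encode the position-specific integrins of Drosophila melanogaster and the proteins that tie them to the cytoskeleton: mys, if, mew, rhea, Ilk, parvin, stck and by. They were taken by FlyBase gene identifier from 15222 gene features counted in wing imaginal discs, and all 8 were found. The libraries were made from total RNA of discs dissected from wandering larvae of the third instar. The wtsP2 group held 2 libraries of strain yw larvae with the genotype wtsP2, an allele of warts (wts), and the wild-type group held 2 libraries of strain yw. The wts gene encodes the Hippo pathway kinase that keeps the coactivator Yorkie in check, and the comparison asks which transcripts differ when it is mutated. Neither the sex of the larvae nor the number of discs behind a library is stated.

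Integrins are transmembrane receptors made of an alpha and a beta subunit that hold epithelial cells to the extracellular matrix. In the fly wing, the mys product is the shared beta subunit, mew encodes the alpha subunit found mainly on dorsal cells and if the one found mainly on ventral cells. Talin, the rhea product, binds the beta subunit tail and links it to actin. The products of Ilk, stck (PINCH) and parvin form one complex that joins the adhesion site after talin, and by encodes tensin, which also binds there. Loss of these genes lets the dorsal and ventral wing layers come apart, which shows as blisters in the adult wing.

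None of the 8 genes passed the test between wtsP2 and wild-type discs. Their observed values differed in direction, and no test compared the members with each other. In the per-library files, the transcripts of both alpha subunits, of the beta subunit and of talin lay higher in both wtsP2 libraries than in both wild-type libraries. The fitted differences were 1.50-fold for mys, 2.51-fold for if, 1.78-fold for mew and 1.60-fold for rhea. In a second counting, given below, mys overlapped between the groups. The PINCH gene stck had 189 and 319 counts in wtsP2, against 23 and 0 in wild type. Of its partners in the complex, parvin lay lower in both wtsP2 libraries, and Ilk overlapped between the groups with too wide an error to give a direction. The tensin gene by overlapped between the groups as well.

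Differences were tested with edgeR's quasi-likelihood test on the counts of 7278 genes, with Benjamini-Hochberg adjustment over all of them and a threshold of 0.05. Of all tested genes, 0% were called higher and 0% lower. At an unadjusted p under 0.05, 1 of the 8 members (if) was higher and 0 lower, where 9.91% of all tested genes were higher and 2.65% lower. The wtsP2 libraries were both above, without overlap, for 5 of the 8 members and both below for 1, against 32.3% and 15.1% of all tested genes. DESeq2 called 0 of the 8 members higher and 0 lower, where it called 1.3% and 1.17% of its genes. Limma-voom likewise called 0 and 0, against 1.69% and 0.371% of all genes. With a wtsP2 library left out, 0 members were called, against 0.137% of genes higher and 0.192% lower without replicate 1 and 0.0412% and 0.206% without replicate 2. With a wild-type library left out the calls differed: 4 members were higher and 0 lower without replicate 1, against 35.4% and 8.22% of all genes, and 1 was higher and 0 lower without replicate 2, against 11.6% and 4.01%. The members' median log2 fold change was 0.63, and that of all tested genes 0.24. This gap changed with the processing. The 2 medians were 0.56 and 0.17 with RLE scaling, and 0.42 and 0.25 with a length trend removed. With the replicate number as a block they were 0.82 and 0.76, and in limma-voom the members' median was the lower, 0.67 against 0.77.

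The libraries held 3520970 and 3846682 counts in wtsP2 and 2112468 and 696952 in wild type, so that the second wild-type library gives the least precise values. Counts of wts itself (48 and 24 in wtsP2, 46 and 0 in wild type) did not settle the genotype labels (log2 fold change -0.15 ± 2.36 SE, edgeR adjusted p = 0.999). No label states that replicate libraries were made from different animals or cultures, so p-values measure only the spread between them, which may be technical. All 18 markers listed for the disc epithelium were tested, with summed levels of 6029 and 5038 CPM (counts scaled to library size by TMM) in wtsP2 and 4282 and 4320 CPM in wild type. The single markers went both ways, and 11 of the 18 had a positive log2 fold change. In both wtsP2 libraries 6 lay higher and 5 lower than in both wild-type libraries, against 32.3% and 15.1% of all tested genes. The 8 markers of larval fat body summed to 0.0897% and 0.138% of the scaled counts in wtsP2 and to 2.00% and 1.80% in wild type. Markers of haemocytes, the blood cells, summed to 206 and 297 CPM in wtsP2 and to 874 and 895 CPM in wild type (11 markers, with lz at 0 in all 4 libraries). Of the 8 tested, 0 had a positive log2 fold change, and 5 lay lower in both wtsP2 libraries. Hml and Pxn overlapped between the groups, at -0.28 ± 0.63 and -0.31 ± 0.84, while PPO1 lay at -4.69 ± 0.82. Muscle markers summed to 394 and 357 CPM in wtsP2 and to 415 and 303 CPM in wild type, but the list was split. The titin-like gene sls, with 1353 and 1058 counts in wtsP2 and 224 and 42 in wild type, made up most of the wtsP2 sum, while the myosin heavy chain gene Mhc had 3 and 27 counts in wtsP2 and 242 and 77 in wild type. Of the 5 tested muscle markers 1 had a positive log2 fold change, the median was -2.76, and Mlc1 and up were at 0 in all libraries. Myoblast markers summed to 330 and 342 CPM in wtsP2, against 241 and 820 CPM in wild type, and were split too. Of the 6 tested, 3 had a positive log2 fold change, and the median was -0.02. The gene twi had 80 and 79 counts in wtsP2 and 0 and 0 in wild type, while Mef2 and htl lay lower in both wtsP2 libraries. The 6 tracheal markers summed to 3490 and 3866 CPM in wtsP2 and to 846 and 1135 CPM in wild type, but this list was mixed as well. The largest part came from uif, with 4697 and 7196 counts in wtsP2 and 412 and 178 in wild type. The log2 fold change was positive for 5 of the 6 and negative for btl (-2.12 ± 1.48), which had 46 and 67 counts in wtsP2 and 27 and 96 in wild type. Salivary gland markers summed to 4.87 and 1.39 CPM in wtsP2 and to 502 and 371 CPM in wild type. The 3 tendon markers summed to 117 and 134 CPM in wtsP2, against 128 and 0 CPM in wild type. Their part in the values of the adhesion genes was not tested.

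**Figure D1:**
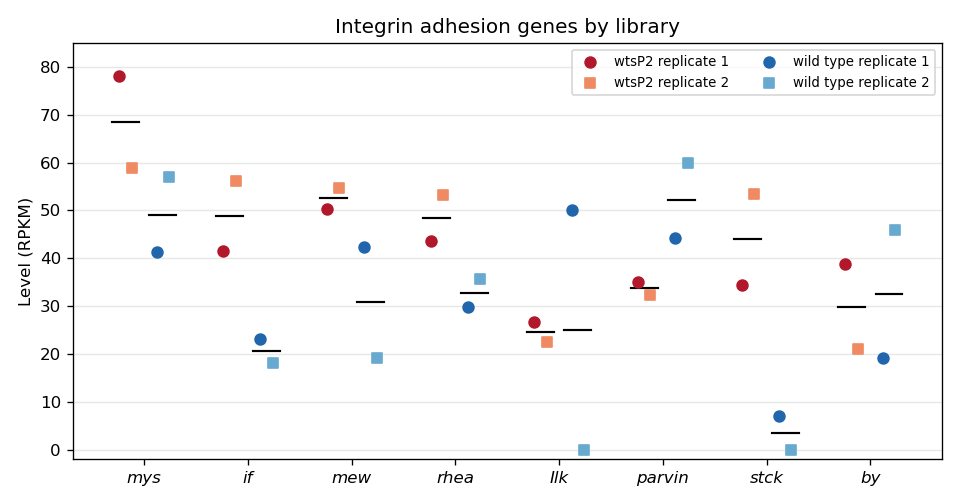
Level of each of the 8 adhesion genes (vertical axis, the authors' RPKM) in every library, with wtsP2 to the left and wild type to the right of each name; points are libraries and bars the mean of the 2 libraries. The points of mys, if, mew and rhea lie higher in wtsP2 than in wild type, stck is at 7.02 and 0 RPKM in wild type, and parvin lies lower in wtsP2.

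The beta subunit gene mys (FBgn0004657; chromosome X, 7955680 to 7964270, plus strand; coordinates as counted, builds BDGP5 and dm3 per the submitters' processing notes) had 1096 and 898 counts in wtsP2 and 347 and 158 in wild type. Per length, it stood at 78.1 and 58.8 RPKM (counts scaled by gene length and library size) in wtsP2 and at 41.3 and 57.0 RPKM in wild type. The groups did not overlap, but the lower wtsP2 library and the higher wild-type library lay close together. Its log2 fold change came to 0.59 ± 0.38 (SE, 2 libraries a group, edgeR adjusted p = 0.730), and without single libraries it ran between 0.43 and 0.76. With mean levels of 68.4 RPKM in wtsP2 and 49.1 RPKM in wild type, mys was the highest of the 8 genes in both wtsP2 libraries, and its mean over the 4 libraries was at the 79.5th percentile of tested genes.

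The alpha subunit gene if (inflated, FBgn0001250; chromosome X, 16646222 to 16677467, minus strand) had 858 and 1263 counts in wtsP2 and 288 and 74 in wild type. Its level was 41.5 and 56.1 RPKM in wtsP2, against 23.3 and 18.1 RPKM in wild type, and no other integrin subunit gene separated the groups by as wide a gap. The log2 fold change was 1.33 ± 0.44 with an unadjusted p of 0.0272, and edgeR's adjusted p of 0.368 missed the threshold. The call changed with a single library: without wild-type replicate 1 the value was 1.62 (edgeR adjusted p = 0.00942), a fit in which 35.4% of all genes were called higher. Exons with more than 10 reads numbered 6 and 9 of 14 in wtsP2 and 4 and 2 of 14 in wild type.

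For mew (multiple edematous wings, FBgn0004456; chromosome X, 13108442 to 13152523, minus strand), the counts were 904 and 1068 in wtsP2 and 456 and 68 in wild type. The wtsP2 libraries were close to each other at 50.4 and 54.7 RPKM, while the wild-type libraries, at 42.5 and 19.2 RPKM, were not. The log2 fold change of 0.83 ± 0.54 (edgeR adjusted p = 0.734) therefore leaned on the wild-type library used: it was 1.64 without wild-type replicate 1 (edgeR adjusted p = 0.00733) and 0.35 without wild-type replicate 2 (0.575). The features CG32639 and CG15742 lie within mew on the same strand. They had at most 34 counts in a library.

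The talin gene rhea (FBgn0260442; chromosome 3L, 8538057 to 8567509, plus strand) is the longest of the 8, with 10337 bases of exon. It had 1567 and 2087 counts in wtsP2 and 641 and 253 in wild type, or 43.6 and 53.3 RPKM against 29.8 and 35.6 RPKM. The 2 libraries of each group were near each other and the groups stayed apart. At 0.68 ± 0.35 (edgeR adjusted p = 0.571) its log2 fold change had the smallest error of the 8 genes. Of its 20 exons, 13 and 14 had more than 10 reads in wtsP2 and 10 and 5 in wild type.

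These values stand in a wider trend with gene length and chromosome. Tested genes as long as rhea and if, in the longest of 10 classes (5445 to 69358 bases), had a median log2 fold change of 0.72, and the class of mys, mew and by (3959 to 5431 bases) one of 0.48. Thus rhea lay near the median of its class, and if further above it. Against the 0.48 of their class, mys was at 0.59, mew at 0.83 and by at 0.0063. The class medians of stck, parvin and Ilk were 0.09, 0.07 and 0.18. These genes were at 3.59, -0.52 and -0.02, with wide errors for stck and Ilk. When a length trend was fitted and removed library by library, the log2 fold changes were 0.57 for mys, 1.05 for if, 0.52 for mew and 0.32 for rhea. In that fit if had an unadjusted p of 0.170 (edgeR adjusted p = 0.772), so that 0 of the 8 members were under 0.05. Of all 7278 genes in that fit, 659 were higher and 164 lower at an unadjusted p under 0.05. Of the genes, mys, if, mew and parvin, are on the X chromosome, where 1230 tested genes had a median of 0.39, against 0.22 for 5944 genes on the arms of chromosomes 2 and 3.

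**Figure D2:**
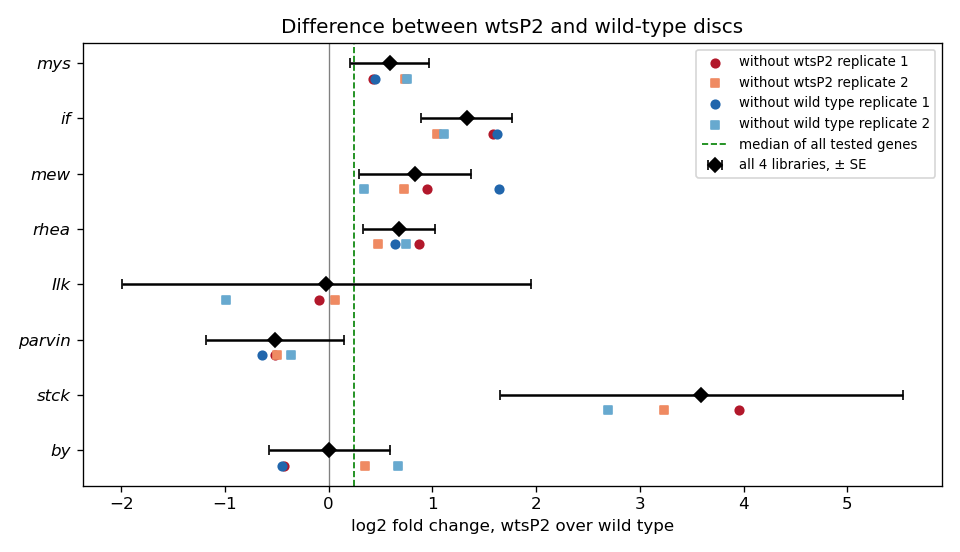
Log2 fold change of wtsP2 over wild type for each gene (horizontal axis) from all 4 libraries (diamonds, bars are ± SE) and with each library left out (smaller points). Points for Ilk and stck without wild-type replicate 1 are not drawn, since the remaining wild-type library had 0 counts. The intervals of Ilk and stck are the widest, with errors of 1.97 and 1.94.

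The PINCH gene stck (steamer duck, FBgn0020249; chromosome 3R, 4182689 to 4185686, plus strand) encodes the LIM-domain partner of integrin-linked kinase. Its 189 and 319 counts in wtsP2 came to 34.5 and 53.5 RPKM. In wild type, 23 counts gave 7.02 RPKM in replicate 1, and 0 counts in replicate 2 allow up to 2.73 RPKM (3 counts, counting error only). The groups were far apart, with 7 and 5 of 10 exons over 10 reads in wtsP2 against 2 and 0 in wild type. The fitted log2 fold change was 3.59, or 12.1-fold, at the 91.8th percentile of tested genes, but with an error of 1.94 and edgeR's adjusted p at 0.611. Without wild-type replicate 2 it was 2.69 ± 0.76 and passed (edgeR adjusted p = 0.0280), a fit in which 11.6% of all genes were called higher. It also passed without wild-type replicate 1, where the remaining wild-type library had 0 counts and no fold is given.

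The 0 of stck in wild-type replicate 2 carries little information. Scaled from replicate 1, 8.54 counts would have been predicted there, and of 1228 tested genes with a prediction between 4.27 and 17.1 counts, 57.3% were at 0. The 23 counts of replicate 1 are thus the main measure of stck in wild type. A stretch of 7 bases of stck overlaps Veneno on the opposite strand, which had 178 and 247 counts in wtsP2 and 264 and 89 in wild type. Whether the counting used strand is not given, so reads of the shared bases cannot be assigned to one of the genes.

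Integrin-linked kinase, the pseudokinase at the centre of this complex, is encoded by Ilk (FBgn0028427; chromosome 3L, 21209994 to 21212340, plus strand). The gene had 207 and 189 counts in wtsP2 and 232 and 0 in wild type, or 26.8 and 22.4 RPKM against 50.1 and 0 RPKM. The wtsP2 libraries lay between the wild-type libraries, so the groups overlapped fully. The log2 fold change was -0.02 ± 1.97 (edgeR adjusted p = 0.999), an error too wide to tell a rise from a fall. The 0 in wild-type replicate 2 stands where 86.1 counts were predicted from replicate 1. Among 2554 tested genes with a prediction between 43.1 and 172 counts, 15.9% were at 0 in that library, far more than counting error gives. Without this library the log2 fold change was -0.99 ± 0.51 (edgeR adjusted p = 0.196).

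The third gene of the complex, parvin (FBgn0052528; chromosome X, 19640090 to 19642491, plus strand), encodes an actin-binding adaptor. It had 222 and 223 counts in wtsP2 and 168 and 75 in wild type, which came to 35.1 and 32.4 RPKM and to 44.3 and 59.9 RPKM. Both wtsP2 libraries lay below both wild-type libraries, and parvin was the one member of which this was so. The log2 fold change of -0.52 ± 0.66 (edgeR adjusted p = 0.942) was smaller than its error. It was negative in all 14 alternative analyses, at -0.36 to -0.64 with single libraries left out. These analyses drew on the same 4 libraries and are not independent of each other.

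The tensin gene by (blistery, FBgn0000244; chromosome 3R, 5353960 to 5358734, minus strand) had 644 and 381 counts in wtsP2 and 190 and 151 in wild type. Its levels of 38.8 and 21.1 RPKM in wtsP2 and 19.1 and 46.0 RPKM in wild type differed as much within a group as between them. The log2 fold change was 0.0063 ± 0.59 (edgeR adjusted p = 0.999), and its sign turned with the scaling, at -0.079 with RLE scaling. At least 4 of its 5 exons had more than 10 reads in every library.

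Ratios between members within a library do not depend on how the libraries were scaled to each other. The ratios were not adjusted for the trend with gene length, however. The median log2 fold change was 0.07 in the length class of parvin, 0.09 in that of stck and 0.48 in that of mys. Of 12 ratios of RPKM computed, 3 kept the groups apart in all 4 libraries, and stck over Ilk was undefined in wild-type replicate 2. For parvin over mys the ratio was 0.449 and 0.550 in wtsP2 and 1.07 and 1.05 in wild type. For stck over parvin it was 0.984 and 1.65 in wtsP2 and 0.158 and 0 in wild type, and stck over mys separated the groups too. Both stck ratios include its 0 counts in wild-type replicate 2. The share of other gene pairs whose ratios keep the groups apart was not computed. Among single tested genes, 32.3% lay higher in wtsP2 without overlap and 15.1% lower. With 2 libraries a group no permutation test of such a ratio could pass, so they are given as a description.

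The balance of the alpha subunits did not separate the groups in the per-library files. The ratio of if to mew was 0.823 and 1.03 in wtsP2 and 0.547 and 0.943 in wild type. Their sum relative to mys was 1.18 and 1.88 in wtsP2 and 1.59 and 0.654 in wild type, and talin relative to mys was 0.558 and 0.907 against 0.721 and 0.625.

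**Figure D3:**
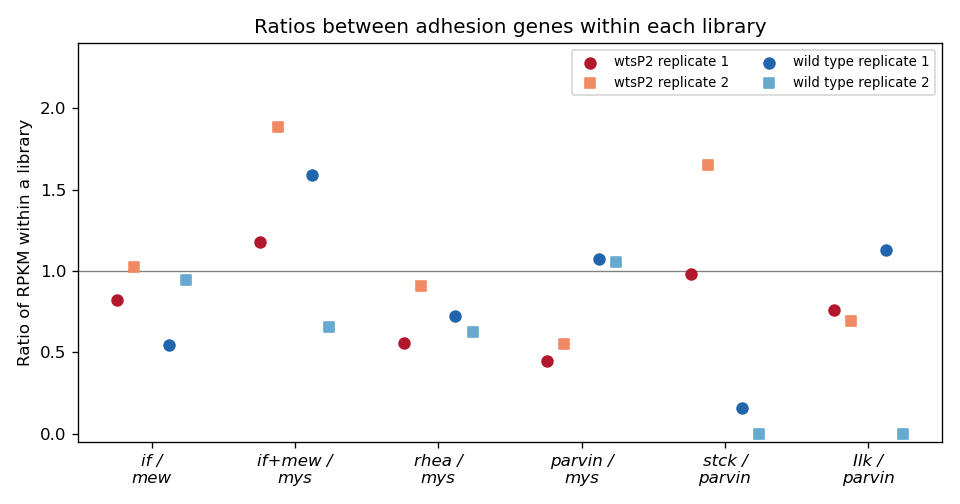
Ratio of RPKM values between adhesion genes within each library (vertical axis), with wtsP2 libraries to the left and wild-type libraries to the right of each name. The wild-type points of parvin over mys, 1.07 and 1.05, lie above the wtsP2 points, 0.449 and 0.550, and those of stck over parvin lie below them. Ratios are not adjusted for the trend of the log2 fold change with gene length.

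The order of the members per length differed between libraries. In the wtsP2 libraries mys came first, and Ilk and by came last in 1 library each, while mew, rhea, if and stck lay between 53.3 and 56.1 RPKM in replicate 2 and changed places between the libraries. In wild type Ilk came first in replicate 1 and was at 0 in replicate 2, whereas parvin was second and first. Neighbours in this order, such as mew, rhea and if in wtsP2, did not differ beyond the spread between libraries.

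A second counting of the same libraries lies behind the authors' deposited table of group means. The authors' deposited table gives fold values of 1.04 for mys, 2.54 for if, 1.53 for mew and 1.36 for rhea. For stck the authors' deposited table gives 14.1, for Ilk 0.894, for parvin 0.637 and for by 0.944. The whole counts recovered from those means differed most for mew, at 3002 in wtsP2 and 817 in wild type summed over libraries, against 1972 and 524 in the per-library files. For Ilk, parvin and by the sums of both countings were within 3% of each other. In edgeR on the recovered counts, the log2 fold change of if was 1.43 ± 0.36 (edgeR adjusted p = 0.353) and that of mys 0.13 ± 0.40 (0.974). The recovered counts of mys were 982 and 1271 in wtsP2 (size factors 1.84 and 1.76) and 461 and 270 in wild type (0.942 and 0.376). Divided by these factors, they overlapped between the groups. Of the genes that lay higher in wtsP2, mys thus depended most on the counting, and the ratio of parvin to mys kept the groups apart here as well, at 0.555 and 0.328 in wtsP2 and 0.803 and 0.616 in wild type. On the recovered counts 5 of the 12 ratios kept the groups apart, the same 3 and both if over mys and if over mew. Here too the share of other gene pairs was not computed, and the ratios were not adjusted for the trend with gene length. The ratio of if to mys was 1.15 and 0.670 in wtsP2 and 0.460 and 0.286 in wild type, and that of if to mew 0.929 and 0.753 in wtsP2 and 0.399 and 0.721 in wild type.

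The profiles of the members over the 4 libraries differed by a root mean square of log2 CPM, each gene centred on its own mean. The nearest pair was mys and rhea, at 0.26, followed by if and mew, at 0.35. Ilk and stck, the genes with a 0 in wild type, stood far from all others, and the largest distance was between Ilk and by (3.18). Among all tested genes, 285 were nearer to mys than rhea was. The nearest were scu, mei-P26 and net, at 0.037, 0.042 and 0.046, and with 4 libraries many genes share so simple a profile.

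Other genes of integrin adhesion were read from the same fit, and in every list 0 were called higher and 0 lower. At an unadjusted p under 0.05, 4 of the 32 tested genes were higher and 1 lower, near the 9.91% and 2.65% of all tested genes. With the length trend removed 2 were higher and 1 lower, against 659 and 164 of all 7278 genes. Of the other integrin subunits, 4 were in the files and 2 were tested. The alpha subunit gene scb had 182 and 217 counts in wtsP2 and 181 and 147 in wild type, and lay lower in both wtsP2 libraries at a log2 fold change of -1.31 ± 0.65 (edgeR adjusted p = 0.551). ItgaPS4 had 0 and 21 counts in wtsP2 and 17 and 0 in wild type. The beta subunit gene Itgbn had 0 counts in all libraries, so that mys was the one beta subunit gene detected, and ItgaPS5 had at most 11 counts.

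Of 17 tested genes for other cytoplasmic adhesion proteins, 12 had positive log2 fold changes around a median of 0.66, and the wtsP2 libraries were both above the wild-type ones for 10 and the reverse held for 2. Of all 7278 tested genes, 4221 had positive values, 32.3% lay above without overlap and 15.1% below. Gene length was not taken into account in these counts. Lasp, for an actin-binding LIM protein, had 590 and 510 counts in wtsP2 and 82 and 37 in wild type (log2 fold change 1.82 ± 0.56, edgeR adjusted p = 0.368). Zasp52, for a PDZ and LIM protein of integrin attachment sites, had 464 and 455 counts against 18 and 30 (2.46 ± 0.96, edgeR adjusted p = 0.393). The alpha-actinin gene Actn had 1047 and 936 counts in wtsP2 and 296 and 162 in wild type (0.66 ± 0.40). Rap1, for a small GTPase that promotes integrin adhesion, lay lower in both wtsP2 libraries at -1.01 ± 0.40 (edgeR adjusted p = 0.401). Its mean level of 80.7 RPKM over the 4 libraries was exceeded within the list by that of ics, at 96.2 RPKM, whose product binds PINCH. For ics the counts were 625 and 334 in wtsP2 and 373 and 35 in wild type, with no separation of the groups (0.25 ± 0.79).

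Ligands and basement membrane genes went both ways, with 6 of 9 tested genes positive around a median of 0.62, where 4221 of all 7278 tested genes were positive around a median of 0.24. The laminin genes lay higher in both wtsP2 libraries than in both wild-type libraries. However, LanA, wb, LanB1 and LanB2, with 11637, 13215, 6259 and 5747 bases, are in the longest length class, whose median was 0.72. LanA and LanB2 (0.62 ± 0.41) lay below that median. LanB1 had 1970 and 3023 counts in wtsP2 and 504 and 172 in wild type (log2 fold change 1.58 ± 0.38, edgeR adjusted p = 0.368), and LanA 5429 and 6704 against 1885 and 952 (0.66 ± 0.35, edgeR adjusted p = 0.599). The alpha laminin gene wb had 637 and 914 counts in wtsP2 and 133 and 71 in wild type (1.47 ± 0.47, edgeR adjusted p = 0.368). SPARC, for a collagen-binding matrix protein, ran the other way, with 272 and 237 counts in wtsP2 and 527 and 203 in wild type (-1.86 ± 0.41, edgeR adjusted p = 0.368). In the fly SPARC is made largely by fat body and haemocytes, whose marker sums were lower in wtsP2 as given above. The haemocyte markers Hml and Pxn overlapped between the groups, however, and the part of these cells in this value was not tested.

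Among the 4 matrix remodelling genes, Timp, the inhibitor of matrix metalloproteinases, had 46 and 83 counts in wtsP2 and 0 and 1 in wild type. The protease gene AdamTS-A had 357 and 669 counts in wtsP2 and 71 and 43 in wild type (log2 fold change 1.67 ± 0.66, edgeR adjusted p = 0.398). The metalloproteinase genes lay on the other side of 0 with wide errors, Mmp1 at -0.17 ± 0.78 and Mmp2 at -1.04 ± 1.52.

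**Figure D4:**
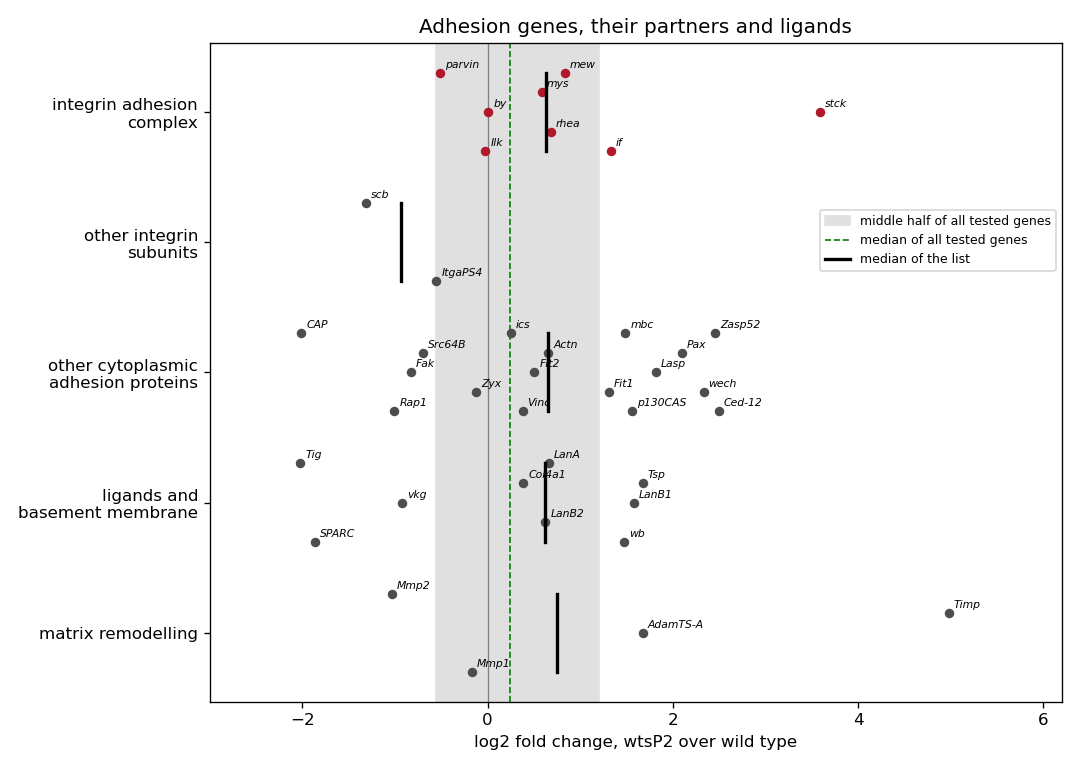
Log2 fold change of wtsP2 over wild type (horizontal axis) for the 8 adhesion genes and for the tested genes of 4 related lists, 1 point per gene. Black bars are list medians, the dashed line is the median of all tested genes at 0.24, and the shaded band runs between the quartiles of all tested genes, -0.56 and 1.21. The list medians of 3 of the 4 related lists, 0.66, 0.62 and 0.75, lie near the 0.63 of the 8 genes. The place of Timp rests on 1 wild-type count. Values are not adjusted for gene length, with which the log2 fold change rises.

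In these bulk samples, more RNA of a gene per cell and more cells that express it cannot be told apart.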

How the data were processed

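Each library has a deposited file of whole read counts by gene feature, with length, position and the number of exons with more than 10 reads. RPKM values stand beside the counts, per the file headers. A table of the series gives group means of a signal, which are DESeq base means (counts divided by size factors) per the file headers, and the fold between them as deposited by the authors. HTSeq and DESeq and the builds BDGP5 and dm3 are named in the submitters' processing notes. Neither aligner nor strand setting is named. Libraries were made with a SOLiD total RNA kit, per the labels' protocols.

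EdgeR 4.0.16 was run on the counts (R 4.3.3, filterByExpr, TMM, robust quasi-likelihood F test), which kept 7278 genes, all 8 members among them, and left 7944 untested. Standard errors were taken as log2 fold change divided by √F. Symbols came from the reference annotation by gene identifier, or by transcript identifier for 12 of the 116 listed genes. In all, 114 were matched. Whole counts behind the authors' means were recovered within a relative tolerance of 1e-09 for 9726 of 9875 nonzero means in wtsP2 and 8286 of 8286 in wild type, the rest at the nearest whole counts. All means of the members had 1 solution. The table gives them no replicate numbers, and none were assigned from their values. Named genes were the members, and of each adhesion list the 4 with the smallest p and the 2 with the highest level. Other genes with few counts were chosen after their values were seen. Members and lists were chosen with earlier results of these data known. Alternatives were other scalings and filters, DESeq2 1.42.0, limma-voom (limma 3.58.1), a length curve, the replicate number as a block and each library left out. The recovered counts were added after seeing the data. The edgeR procedure was also run on simulated counts, and the outcome is not given here.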

Additional observations from a re-analysis of the deposited data

How the results depend on the processing

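Of 112 values of the 8 members over 14 alternatives, 97 kept their direction and their side of the threshold, 11 changed sign and 4 came to pass it, all 4 with a wild-type library left out; Ilk both changed sign and passed without wild-type replicate 1. The sign changes were in by and Ilk alone. For by the log2 fold change was -0.079 with RLE scaling, -0.081 with upper quartile scaling, -0.078 in DESeq2, -0.12 with library totals alone, -0.0026 with recovered counts, and -0.45 to 0.67 with single libraries left out. For Ilk it was 4.04 in limma-voom and -0.99 to 10.19 with single libraries left out, where the highest value rests on 0 wild-type counts and on the prior count. With the replicate block Ilk was at 2.31, and 69 genes were called higher and 38 lower, though the numbers are not shown to pair the libraries (correlation 0.0080 between the groups' replicate differences). Over all genes, 21 were called higher and 16 lower without a filter, 96 and 86 in DESeq2, 123 and 27 in limma-voom, and between 3 and 2579 higher and 14 and 598 lower with single libraries left out. Members called higher then ran from 0 to 4 (if, mew, Ilk and stck without wild-type replicate 1), and genes of the other adhesion lists from 0 to 11 higher and 0 to 6 lower. In these fits the lone library of a group is assumed to vary like the other group. The cause of these changes was not tested. The common coefficient of variation was 46.0% without wild-type replicate 1 and 45.7% without replicate 2, against 92.8% with all libraries.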
